A study of Rattus norvegicus with 46 samples.

Results

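Genes that activate long-chain fatty acids, carry them into mitochondria and answer to the nuclear receptor PPAR-alpha were followed through the hypertrophic rat left ventricle. The genes considered were Acsl1, Cpt1a, Cpt1b, Cpt2, Slc25a20, Crat, Acot2, Pdk4, Ucp3 and Ppara. Every probe set that the platform annotation pairs with exactly 1 of these 10 symbols was kept, which gave 15 of 8740 probe sets, for 9 of 4736 genes with a probe set. Crat had no such probe set and is not analysed here. A further probe set that the annotation gives to both Acot2 and its close relative Acot1 was left out. The hearts came from male Wistar rats. Pressure overload was made by a clip on the ascending aorta (banding) and sampled at 6, 12 and 16 weeks with 2 arrays each and at 30 weeks with 4 arrays. Myocardial infarction was made by ligation of a coronary artery and sampled at 3 and 9 weeks with 4 arrays each. For infarction the study took hearts in which the infarct was large and measured the surviving ventricle without scar. Volume overload was made by a shunt between aorta and vena cava and sampled at 3 and 8 weeks with 2 arrays each. Angiotensin II, given by subcutaneous pump, and the thyroid hormone analogue Ditpa, given subcutaneously, were each sampled after 2 weeks with 2 arrays. The labels call the Ditpa treatment an infusion and the study's methods call it daily injections. Each surgical time point has its own 2 arrays of sham-operated rats, and 1 pair of saline vehicle arrays serves both hormones. Another 2 arrays hold neonatal hearts, taken 3 days after birth, which the labels call left ventricle and the methods only hearts. Each array carries RNA pooled from several animals, so the p-values below measure the spread between pools.

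The adult heart burns mainly fatty acids. Long-chain fatty acids are first joined to coenzyme A by acyl-CoA synthetases, of which Acsl1 is the main one in heart. The mitochondrial inner membrane does not let acyl-CoA through. Carnitine palmitoyltransferase 1 (Cpt1b in muscle, Cpt1a in liver and in the fetal heart) therefore moves the acyl group to carnitine, the translocase Slc25a20 carries acylcarnitine inwards, and Cpt2 restores acyl-CoA inside. Ppara, the nuclear receptor that binds fatty acids, drives many of these genes together with its partner RXR. Pdk4, a kinase that switches off pyruvate dehydrogenase and so spares glucose, is among its best known targets, as are the mitochondrial thioesterase Acot2 and the mitochondrial carrier Ucp3.

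Values are model-based intensities on a linear scale. They were put on the log2 scale, and every difference below is a limma estimate in log2 units ± SE. Calls were made at a p below 0.05 after Benjamini-Hochberg adjustment over the 8740 probe sets. No member intensity was below the floor of 16 on any array, and the lowest was 220. The floor is not a detection limit, and detection of the members was not tested. Median intensities on adult control arrays were 846 for the brown fat marker Ucp1. For skeletal muscle markers they ran from 418 (Myh4) to 2038 (Myh1). The same medians were 733 for Ppara, 371 for Acot2 AB010429_s_at, 1394 and 1373 for the Ucp3 probe sets and 1376 for Pdk4. Median intensities of the arrays lay between 1003 and 1084. The brightest probe sets were compressed on the 4 hormone arrays, whose highest intensity was 22581 to 23633, against 33408 and 39898 on the vehicle arrays. Low highest intensities were not limited to hormone arrays. They were 30195 and 24526 on the neonatal arrays, 27718 on banding sham replicate 3 of 6 weeks and 29923 on banding replicate 4 of 30 weeks. The largest on any array was 64884. For Pdk4, Cpt2 and the widest differences between models, hormone results are also given after quantile normalization. Banding sham replicate 4 of 16 weeks was the highest of the 18 adult control arrays for 8 of the 15 member probe sets. It was the highest for 6.33% of all probe sets, and the lowest for 1 of the members. Several values that rest on this array, but not all, are also given without it. Markers of cardiomyocytes such as Tnni3 and Actc1 stood among the brightest probe sets on adult control arrays (medians 49066 and 48996). Of 9 measured cardiomyocyte markers 0 were called after banding or infarction, and of 5 adipocyte markers 0. Of 7 measured fibroblast markers, 5 were called higher after banding and 5 after infarction, and of 5 macrophage markers 1 and 2. Their summed intensity was 33671 to 55690 on banding arrays and 28356 to 41522 on the shams, and 51320 to 99016 on infarction arrays and 47364 to 56748 on the shams. The part of this shift in the member results was not tested. In such bulk RNA, fewer cardiomyocytes and less RNA per cardiomyocyte cannot be told apart.

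After banding, 6 of the 15 member probe sets were called, all lower, against 1.98% of all probe sets called lower and 5.26% called in either direction. They stand for 4 genes, Acsl1, Slc25a20 and Cpt2 of the route into the mitochondrion and the thioesterase Acot2. The members' median was -0.21 log2, and the median over all probe sets was 0.02. Without the 16-week group 3 of the 6 calls were left, 2 of Acsl1 and that of Cpt2, and with only banding and sham arrays in the fit 1 was left, that of Cpt2. Without sham replicate 4 of 16 weeks 3 calls were left in all. Infarction gave 1 called member probe set, of Acsl1, which was lower, against 0.252% of all probe sets called lower and 1.96% in either direction. The shunt gave 0 of 15 in limma (0 of 15 also at an unadjusted p below 0.05, against 8.60% of all probe sets), where 0.0458% of all probe sets were called. Averaged over the 10 treated groups with equal weight, 3 of 15 were called, all lower, against 1.57% called lower and 5.21% in either direction.

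**Figure D1:**
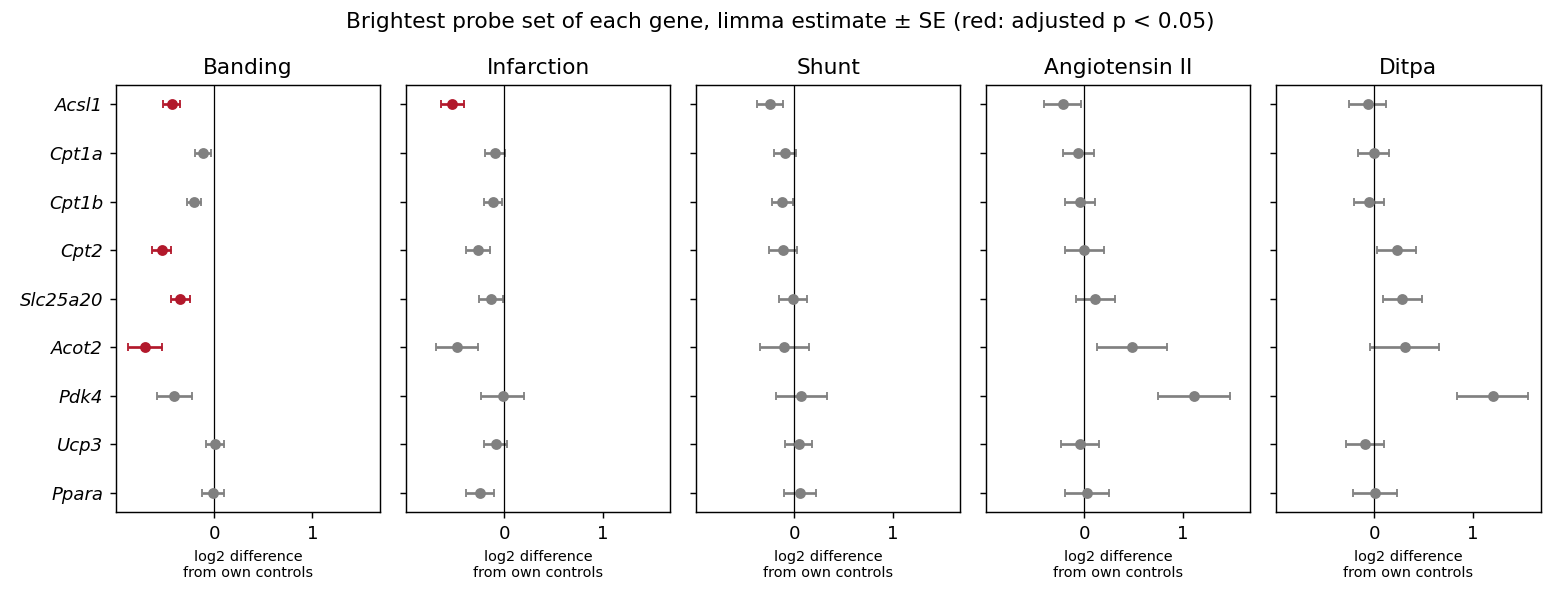
Limma estimates ± SE of the log2 difference from own controls (horizontal axis) for the brightest probe set of each of the 9 genes, by model, with called genes in red. Banding has 4 red genes, from -0.34 for Slc25a20 to -0.70 for Acot2, infarction has Acsl1 alone at -0.52, and Pdk4 is the point farthest to the right with both hormones (1.12 and 1.20, not called).

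Promoter windows of 300 bases, most of each before the annotated gene start (RefSeq, build GRCr8), were read for 8 of the 9 measured genes. Cpt1b was not matched. PPAR-alpha with RXR binds a direct repeat of the half-site AGGTCA with 1 base between the copies. Searched on both strands as AGGNCA, any base, AGGNCA, the repeat was in 0 of 8 member windows and in 0.415% of all 33469 windows. The single half-site AGGTCA was in 1 of 8, that of Ucp3, and in 16.2% of all. The GC box GGGCGG was in 4 of 8 (Cpt2, Pdk4, Ppara and Slc25a20) and in 33.1% of all. CCAAT was in 3 of 8 (Acot2, Acsl1 and Pdk4) and 37.5% of all, and TATAAA in 0 of 8 and 14.2% of all. The windows of Cpt2 and Slc25a20, called lower together after banding, and that of Ucp3, which was not, are shown 5′ to 3′ along the gene. Capitals mark GC boxes on either strand in the first pair and half-sites in Ucp3. The annotated start need not be the one used in heart, and a match is only a match of letters.
Cpt2, chr5:127910769-127911068, minus strand: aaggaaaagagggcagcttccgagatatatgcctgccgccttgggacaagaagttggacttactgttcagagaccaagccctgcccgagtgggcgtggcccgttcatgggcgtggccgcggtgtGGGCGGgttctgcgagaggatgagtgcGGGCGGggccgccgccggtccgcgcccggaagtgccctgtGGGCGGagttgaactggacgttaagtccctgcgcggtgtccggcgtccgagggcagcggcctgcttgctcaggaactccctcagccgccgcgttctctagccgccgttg
Slc25a20, chr8:118243323-118243622, plus strand: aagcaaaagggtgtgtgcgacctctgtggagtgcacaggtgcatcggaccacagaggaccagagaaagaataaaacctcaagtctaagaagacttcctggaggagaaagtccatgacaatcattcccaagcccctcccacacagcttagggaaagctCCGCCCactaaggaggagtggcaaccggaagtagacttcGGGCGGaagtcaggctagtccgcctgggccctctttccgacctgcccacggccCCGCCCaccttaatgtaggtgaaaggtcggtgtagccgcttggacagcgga
Ucp3, chr1:164227660-164227959, plus strand: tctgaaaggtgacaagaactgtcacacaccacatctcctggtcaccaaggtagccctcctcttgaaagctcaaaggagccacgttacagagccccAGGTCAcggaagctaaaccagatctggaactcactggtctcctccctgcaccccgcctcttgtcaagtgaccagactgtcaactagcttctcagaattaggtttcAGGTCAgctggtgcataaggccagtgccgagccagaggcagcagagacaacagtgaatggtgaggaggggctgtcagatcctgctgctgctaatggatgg
The Cpt2 window held 3 GC boxes on 1 strand and no half-site, and that of Slc25a20 held 3 GC boxes, the third across the gene start. The 2 half-sites of Ucp3, both on the gene's strand, begin at -155 and -50 from its start.

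Acsl1, which activates long-chain fatty acids, was the member lowered on the most arrays. Its brightest probe set, rc_AI044900_s_at, lay below the mean of the own controls on 25 of 26 treated arrays, with an average effect of -0.36 ± 0.0599 (limma adjusted p = 0.000191). At 6 weeks of banding it read 6898 and 8204, against 8004 and 11024 in shams. At 12 weeks it read 4708 and 7259, against 10196 and 6285 in shams, and at 16 weeks 6315 and 7741, against 9649 and 11058. At 30 weeks it read 6671, 5866, 5820 and 7379, against 7500 and 9368 in shams. Banding and sham arrays overlapped at 6 and 12 weeks and were apart at 16 and 30 weeks. Across the banding times the difference was -0.43 ± 0.0906 (adjusted p = 0.00268, lower on 10 of 10 arrays). At 12 weeks alone the difference of -0.45 (adjusted p = 0.42) was called without sham replicate 4 (-0.80, adjusted p = 0.0313) or banding replicate 2 (-0.77, adjusted p = 0.0429).

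Infarction arrays were lower than their shams at both times. At 3 weeks the same Acsl1 probe set read 7275, 6744, 7271 and 6682, against 9020 and 9680 in shams. At 9 weeks it read 7405, 6849, 7123 and 6571, against 10730 and 10869 in shams. No infarction array reached a sham array of its time. Over both times the difference was -0.52 ± 0.115 (limma adjusted p = 0.00844, lower on 8 of 8 arrays), and without replicate 2 of the 3-week shams it was -0.50 (adjusted p = 0.0804). At 9 weeks alone it was -0.63 ± 0.162 (adjusted p = 0.0354), the only member call in a single treated group, against 0.229% of all probe sets called lower there. That call was lost without any 1 of 5 of the 6 arrays of that time (adjusted p = 0.0559 to 0.29), all but infarction replicate 4, and with only the arrays of that time in the fit (adjusted p = 0.212). The shunt read 8314 and 8672 at 3 weeks, against 9451 and 7917 in shams, and 7678 and 6634 at 8 weeks, against 9858 and 9931. Angiotensin II gave 8569 and 7118 and Ditpa 9114 and 8227, against 9555 and 8640 with vehicle. Arrays of a treated group lay wholly below both controls in 6 of 10 groups: banding at 16 weeks (24.1% of all probe sets did so there) and 30 weeks (9.15%), infarction at 3 weeks (8.79%) and 9 weeks (6.42%), the shunt at 8 weeks (24.2%) and angiotensin II (19.1%). Acsl1 appears under its older name in the study's list of commonly changed genes, which was chosen on these arrays, so its direction is not independent evidence.

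The other Acsl1 probe sets did not all follow. D90109_at differed by -0.62 ± 0.145 after banding (limma adjusted p = 0.00725, lower on 10 of 10 arrays). It read 3692 and 2521 at 6 weeks of banding, against 5706 and 3359 in shams, and 3590, 2198, 3988 and 5788 at 30 weeks, against 5760 and 5870. Its average effect of -0.33 ± 0.0958 (adjusted p = 0.0377) was no longer called when any 1 of 20 of the 46 arrays was left out (adjusted p = 0.0504 to 0.109), namely 9 of the banding series, 5 of the shunt series, 2 infarction shams, both vehicle arrays, angiotensin II replicate 2 and Ditpa replicate 2. The pair rc_AA893242_at and rc_AA893242_g_at was made from 1 sequence and may share probes, and it split. The first differed by -0.02 ± 0.0563 after banding, with a 95% interval of -0.13 to 0.10. The second differed by -0.54 ± 0.153 (adjusted p = 0.033), a call lost without banding replicate 1 of any of the 4 times, sham replicate 3 of 6 or 12 weeks, sham replicate 4 of 16 weeks or either sham of 30 weeks (adjusted p = 0.0501 to 0.134), and with array weights (-0.57, adjusted p = 0.0632). Over the 26 log2 ratios, rc_AI044900_s_at correlated with D90109_at at r = 0.69 and with rc_AA893242_at at r = 0.06, as a description over arrays that share controls. With the mean of the 4 probe sets, Acsl1 was called after banding (-0.40 ± 0.089, adjusted p = 0.00461) and not after infarction (-0.38 ± 0.113, adjusted p = 0.0843).

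**Figure D2:**
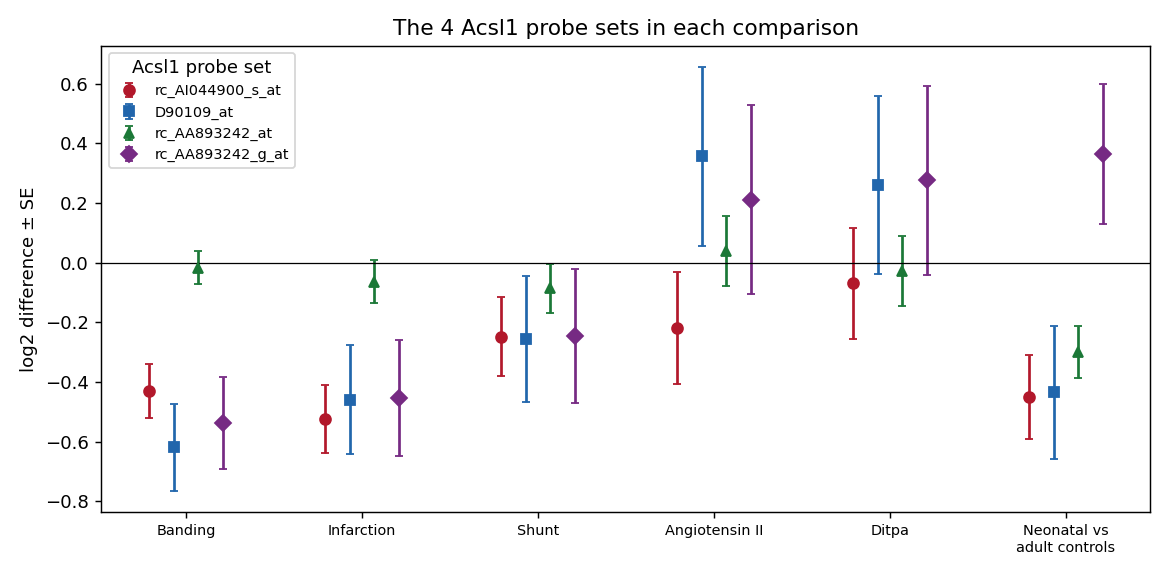
Log2 difference ± SE (vertical axis) of the 4 Acsl1 probe sets in 6 comparisons, the first 5 against own controls and the last of neonatal against adult control ventricle. After banding 3 probe sets lie between -0.43 and -0.62 and rc_AA893242_at at -0.02, and with angiotensin II the probe sets lie on both sides of 0.

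The outer carnitine palmitoyltransferases gave no call in any of the 5 models in the main fit, of all arrays with values as deposited and no weights. Cpt1b, the muscle form, is measured by 2 probe sets made from 1 sequence, which may share probes and correlated at r = 0.86 over the 26 ratios. D43623_g_at, the brighter, read 9922 and 10286 at 6 weeks of banding, against 12136 and 9774 in shams. It read 8989 and 12495 at 12 weeks, against 12110 and 12846, and 9597 and 10379 at 16 weeks, against 12064 and 14760. At 30 weeks it read 9114, 10236, 9830 and 12566, against 10851 and 10800. The difference after banding was -0.21 ± 0.0726 (limma adjusted p = 0.0991, lower on 8 of 10 arrays), with a 95% interval of -0.35 to -0.06. After quantile normalization it was -0.23 and called (adjusted p = 0.018), as it was without banding replicate 2 of 12 weeks (-0.27, adjusted p = 0.0201) or replicate 4 of 30 weeks (-0.23, adjusted p = 0.0407). At 16 weeks alone it was -0.42 ± 0.15 (adjusted p = 0.241). D43623_at, the dimmer, differed by -0.19 ± 0.0973 after banding (adjusted p = 0.304) and by 0.04 ± 0.123 after infarction (adjusted p = 0.943). At 16 weeks of banding D43623_at differed by -0.53 ± 0.201 (adjusted p = 0.269), called when only the arrays of that time were fitted (adjusted p = 0.0229, where 5.89% of all probe sets were called). Both Cpt1b probe sets lay wholly below their shams at 16 weeks, as did 24.1% of all probe sets. Without sham replicate 4, the highest adult control array for both, D43623_at differed by -0.37. Cpt1a, the liver form, differed by -0.11 ± 0.0769 after banding (adjusted p = 0.508). Its intensities were 1878 to 2987 on the 10 banding arrays (median 2637), against 2312 to 3189 on the 8 shams (median 2920). In the fit of all arrays no treated group gave a call for either gene.

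Slc25a20, the carnitine-acylcarnitine translocase, fell after banding by 0.34 on the log2 scale (SE 0.0961, limma adjusted p = 0.0308), with 7 of 10 arrays below their controls. It read 2808 and 3831 at 6 weeks, against 4780 and 4154 in shams, and 3307 and 3791 at 16 weeks, against 5093 and 6657. At 12 weeks it read 3968 and 5195, against 5792 and 4417, and at 30 weeks 5052, 4425, 3514 and 4754, against 4264 and 4836. The arrays were apart from their shams at 6 weeks (15.7% of all probe sets were wholly below there) and 16 weeks, and mixed with them at 12 and 30 weeks. Without the 16-week group the difference was -0.21 and not called (adjusted p = 0.41). The call was also lost without any 1 of 7 arrays: banding replicate 1 at 6, 12 or 16 weeks, sham replicate 3 at 6 or 12 weeks, sham replicate 4 at 16 weeks or sham replicate 6 at 30 weeks (adjusted p = 0.0748 to 0.134), and with array weights (-0.34, adjusted p = 0.115). At 16 weeks the difference without sham replicate 4 was -0.52. After infarction the gene read 3241, 3383, 2735 and 3161 at 3 weeks, against 3784 and 4484 in shams. At 9 weeks it read 5834, 3644, 5299 and 3613, against 4119 and 4097. Its differences were -0.40 ± 0.172 and 0.13 ± 0.172, and that between the 2 times was 0.53 ± 0.243 (adjusted p = 0.813).

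Cpt2, the inner palmitoyltransferase, gave the firmest call after banding, -0.53 ± 0.0959 (limma adjusted p = 0.000491, lower on 10 of 10 arrays). It read 3725 and 4369 at 6 weeks, against 6375 and 4753 in shams, and 3899 and 5610 at 12 weeks, against 6739 and 7116. At 16 weeks it read 4022 and 4365, against 6231 and 7852. At 30 weeks it read 4427, 4285, 4673 and 5579, against 6434 and 5768. Banding arrays lay wholly below their shams at all 4 times, as did 15.7%, 9.86%, 24.1% and 9.15% of all probe sets at 6, 12, 16 and 30 weeks. The call held without each array in turn and without the 16-week group, and at 16 weeks the difference without sham replicate 4 was -0.57. At 12 weeks alone Cpt2 was called only without banding replicate 2 (-0.83, adjusted p = 0.0459). After infarction Cpt2 differed by -0.27 ± 0.121 (adjusted p = 0.387), with all 8 arrays below the mean of their shams. With the shunt it differed by -0.12 ± 0.14, with angiotensin II by -0.00213 ± 0.198 and with Ditpa by 0.23 ± 0.198, none called. After quantile normalization the hormone differences were -0.07 and 0.21. Averaged over the 10 treated groups it fell by 0.27 (SE 0.0635, adjusted p = 0.00804, lower on 22 of 26 arrays). That average lost its call without vehicle replicate 1 (-0.23, adjusted p = 0.0651), without the 16-week banding group (-0.21, adjusted p = 0.0656) and with the 5 models weighted equally (-0.14, adjusted p = 0.714).

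**Figure D3:**
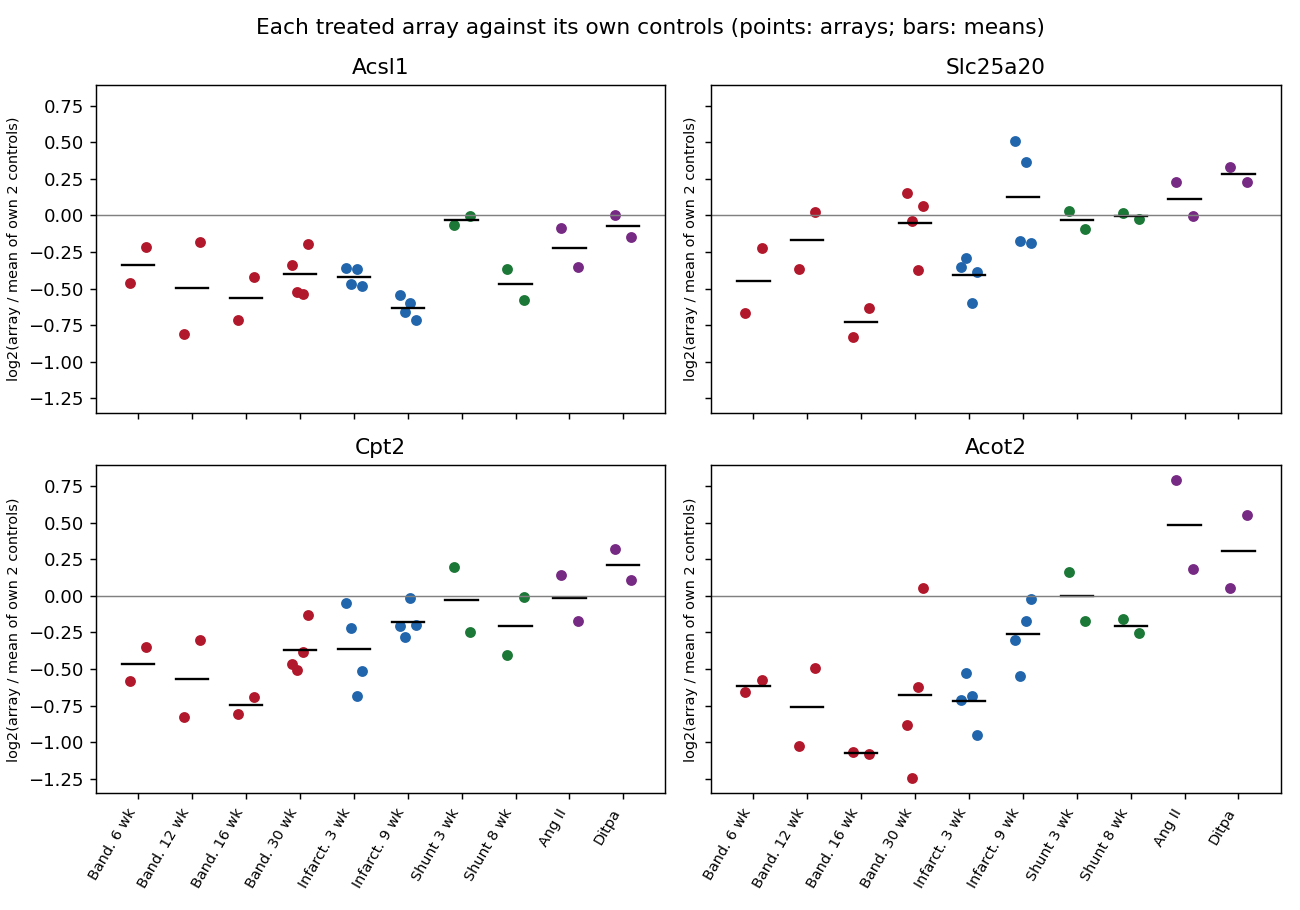
Log2 ratio of each of the 26 treated arrays to the mean of its own 2 controls (vertical axis) for the brightest probe sets of Acsl1, Slc25a20, Cpt2 and Acot2, by treated group; points are arrays and bars are means. All 10 banding arrays lie below 0 for Acsl1 and Cpt2 and 7 of 10 for Slc25a20, while both Ditpa arrays lie above 0 for Slc25a20, Cpt2 and Acot2.

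Acot2, a mitochondrial thioesterase that splits acyl-CoA, was lower after banding in its brighter probe set. Y09333_at read 756 and 804 at 6 weeks, against 1529 and 862 in shams, and 681 and 987 at 12 weeks, against 2033 and 744. At 16 weeks it read 811 and 802, against 1219 and 2175, and at 30 weeks 647, 502, 772 and 1239, against 1016 and 1368. The shams were widely spread at 6, 12 and 16 weeks. The difference was -0.70 ± 0.171 (limma adjusted p = 0.00985, lower on 9 of 10 arrays), the largest among the members. Without sham replicate 4 of 16 weeks it was -0.60 (adjusted p = 0.0549), and without the whole 16-week group -0.60 (adjusted p = 0.1). AB010429_s_at, the dimmer probe set, differed by -0.16 ± 0.151 (adjusted p = 0.678). The mean of both gave -0.43 ± 0.149 (adjusted p = 0.0924). Acot1 and Acot2 are near-identical, so these probe sets may read both, and the result is uncertain as to the gene. The brightest probe set annotated to Acot1 alone was not called after banding.

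Pdk4, the pyruvate dehydrogenase kinase, had its highest group means with hormones. It read 3234 and 2259 with angiotensin II and 1692 and 4869 with Ditpa, against 1078 and 1444 with vehicle. All 4 hormone arrays were above both vehicle arrays, as were 18.7% of all probe sets with angiotensin II and 15.7% with Ditpa, and the Ditpa arrays differed from each other more than any other pair of replicates. The difference was 1.12 ± 0.363 with angiotensin II and 1.20 ± 0.363 with Ditpa, with 95% intervals of 0.38 to 1.86 and 0.46 to 1.94. Neither was called over all probe sets (limma adjusted p = 0.581 and 0.43). After quantile normalization the values were 1.07 and 1.19. With array weights both were called (adjusted p = 0.0169 and 0.0301), but the share of all probe sets called with weights is not given. Without Ditpa replicate 1, which leaves 1 Ditpa array, the Ditpa difference was 1.96. Both treatments share the vehicle pair. Among surgical models Pdk4 read 898 and 1368 at 16 weeks of banding, against 1695 and 2231 in shams, and 2741, 1176, 2013 and 1393 at 9 weeks after infarction, against 1243 and 1506. Its difference was -0.40 ± 0.176 after banding (adjusted p = 0.214), -0.02 ± 0.222 after infarction and 0.07 ± 0.257 with the shunt.

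**Figure D4:**
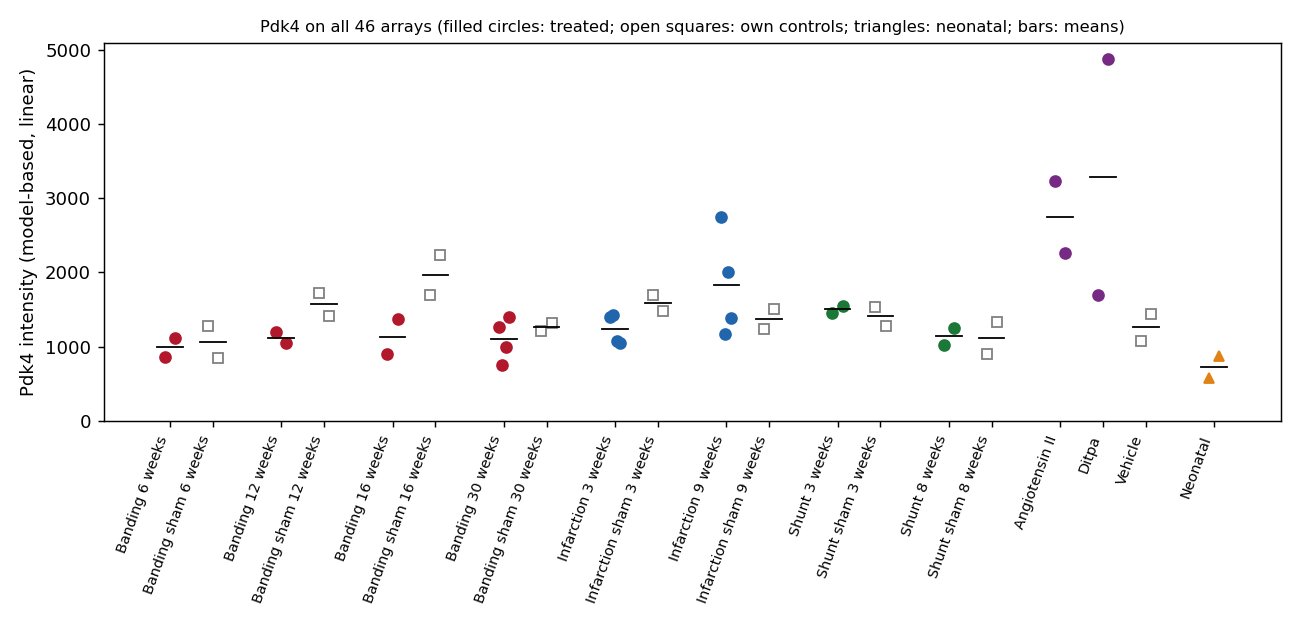
Pdk4 intensity (linear vertical axis from 0) on all 46 arrays, each treated group left of its own controls, with neonatal arrays last; bars are means. The Ditpa arrays at 1692 and 4869 and the angiotensin II arrays at 3234 and 2259 stand above the vehicle arrays at 1078 and 1444, and infarction replicates at 9 weeks range over 1176 to 2741.

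Ucp3, an inner membrane carrier, and Ppara itself gave no call in any treated group. Their medians on adult control arrays lay within the range of the skeletal muscle markers given above. Ucp3 differed by 0.00734 ± 0.0928 after banding in AF030163_s_at and by -0.10 ± 0.0571 in AF035943_at. At 16 weeks AF030163_s_at read 1374 and 1292 on banding arrays, against 1429 and 627 on shams. The resulting difference of 0.49 turned to -0.10 without the lower sham, replicate 4, and to 1.09 (adjusted p = 2.38e-05) without replicate 3, which leaves that sham alone. Ppara differed by -0.00969 ± 0.11 after banding, with a 95% interval of -0.23 to 0.21. After infarction it read 640, 763, 680 and 790 at 3 weeks, against 668 and 715 in shams. At 9 weeks it read 405, 717, 343 and 743, against 733 and 787. The 9-week arrays fell into a low pair and a pair near the shams, and their difference was -0.54 ± 0.197 (limma adjusted p = 0.171). Without replicate 4 it was -0.71 and called (adjusted p = 0.0229).

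Set beside each other, the surgical and hormone models differed in the sign of several members. In the main fit of all arrays, without weights, no difference was called. Surgical minus hormone effects, with banding, infarction and shunt weighted equally against the mean of both hormones, gave 0 of 15 member calls in limma (5 at an unadjusted p below 0.05, against 4.53% of all probe sets), where 0.229% of all probe sets were called. The widest were Pdk4 at -1.27 ± 0.339 (adjusted p = 0.165), Acot2 Y09333_at at -0.82 ± 0.33 (0.631) and Acsl1 D90109_at at -0.75 ± 0.28 (0.479). After quantile normalization they were -1.26, -0.82 and -0.74. With array weights these 3 were called (adjusted p = 0.00722, 0.0318 and 0.0206), but the share of all probe sets called with weights is not given. The 95% interval of Pdk4 was -1.97 to -0.58 before adjustment over probe sets. Without Ditpa replicate 1 the Pdk4 difference was -1.66 and called (adjusted p = 0.0045). Ditpa minus angiotensin II gave 0 of 15 (0 unadjusted, against 1.12% of all), where 0.0114% of all probe sets were called, and the test of any difference among the 5 models gave 0 of 15 (3 unadjusted, against 6.28%), where 0.275% were called. Within single groups 0 of 15 were called at 6, 12, 16 and 30 weeks of banding, where 0.652%, 0.355%, 0.709% and 1.12% of all probe sets were called. The counts at an unadjusted p below 0.05 were 2, 4, 10 and 4 of 15, against 8.27%, 8.89%, 12.8% and 10.7% of all probe sets. Infarction gave 0 of 15 at 3 weeks (5 unadjusted, against 4.58% of all, where 0.206% were called) and 1 of 15 at 9 weeks (3 unadjusted, against 13.7%, where 1.92% were called). The shunt gave 0 at 3 weeks (0 unadjusted, against 9.65% of all, where 0% were called) and 0 at 8 weeks (1 unadjusted, against 3.74%, where 0.0458% were called). Angiotensin II gave 0 (1 unadjusted, against 3.49%) and Ditpa 0 (1 unadjusted, against 3.20%), where 0% of all probe sets were called with either hormone. Changes over banding time gave 0 of 15 (2 unadjusted, against 7.13%), the 9-week minus 3-week infarction difference 0 (4 unadjusted, against 5.82%) and the 8-week minus 3-week shunt difference 0 (0 unadjusted, against 402 of all 8740 probe sets), and 0% of all probe sets were called in each. Banding at 16 weeks had a member median of -0.53 log2, beside -0.11, -0.17 and -0.18 at 6, 12 and 30 weeks, and without sham replicate 4 it was -0.37. There 11 of 15 member probe sets lay wholly below their shams, as did 24.1% of all probe sets. At 6, 12 and 30 weeks of banding 6, 3 and 3 did so, against 15.7%, 9.86% and 9.15% of all. After infarction 8 did so at 3 weeks (against 8.79%) and 3 at 9 weeks (against 6.42%). With the shunt it was 1 at 3 weeks (against 14.1%) and 5 at 8 weeks (against 24.2%). Angiotensin II had 2 (against 19.1%) and Ditpa 0 (against 17.2%).

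Other genes of the route were described from lists, each gene by its brightest probe set. After banding 1.98% of all probe sets were called lower, and after infarction 0.252%. Of 8 measured genes of carnitine supply and malonyl-CoA control, 2 were called lower after banding and 0 higher, with a median of -0.13 log2 beside 0.02 for all probe sets. They were Prkab1, a regulatory subunit of AMP-activated kinase (-0.42 ± 0.0941, limma adjusted p = 0.00461), and Acacb, the acetyl-CoA carboxylase that makes malonyl-CoA at mitochondria (-0.36 ± 0.102, adjusted p = 0.033). Of 9 acyl-CoA synthetases, fatty acid transporters and thioesterases 1 was lower and 0 higher, the transporter Slc27a1 (-0.30 ± 0.064, adjusted p = 0.00268). Of 10 PPAR family genes and partners 1 was lower and 0 higher, the receptor partner Rxrg (-0.31 ± 0.079, adjusted p = 0.0154), which lay below controls on 10 of 10 banding arrays. Of 17 further PPAR-alpha targets 7 were lower and 0 higher, 6 of them enzymes of beta-oxidation (Acadm, Acadvl, Hadha, Hadhb, Acaa2 and Decr1), with a median of -0.14 and the lowest values for Acaa2 (-0.95 ± 0.0824) and Decr1 (-0.95 ± 0.105). Of 7 pyruvate dehydrogenase kinases, phosphatases and subunits 0 were called in either direction. After infarction the only calls in these 5 lists were 2 lower beta-oxidation enzymes, Acaa2 (-0.53 ± 0.104, adjusted p = 0.00327) and Decr1 (-0.69 ± 0.133, adjusted p = 0.00268). With the shunt, angiotensin II and Ditpa the lists held 0 calls. Acaa2, Decr1, Hadha and Hadhb are also in the study's list of commonly changed genes, which was chosen on these arrays. Their direction is therefore not independent evidence.

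Neonatal ventricle was compared with the mean of the 9 adult control groups (18 arrays). Of the 15 member probe sets 5 were lower and 1 higher, where 17% of all probe sets were called lower, 15.5% higher and 32.6% in either direction. So the share of members called, 6 of 15, stood near that of all probe sets. The share of all probe sets with no overlap between neonatal and adult control arrays is not given. Cpt2 read 3571 and 3012 on neonatal arrays, against 4753 to 7852 on adult control arrays (median 5879), with no overlap. It fell by 0.85 on the log2 scale (SE 0.148, limma adjusted p = 3.49e-05). Pdk4 read 584 and 872, against 853 to 2231 (median 1376), a difference of -0.94 ± 0.271 (adjusted p = 0.00759). The second neonatal array lay just inside the adult range, and without replicate 1 the difference was -0.65 (adjusted p = 0.258). Ucp3 AF035943_at read 971 and 946, against 1180 to 1514 (median 1373), with no overlap, and differed by -0.51 ± 0.0879 (adjusted p = 3.37e-05). Its other probe set, AF030163_s_at, differed by -0.10 ± 0.143 (adjusted p = 0.64).

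Acsl1 rc_AI044900_s_at read 7391 and 6242 on neonatal arrays, against 6285 to 11058 on adult control arrays (median 9602), a difference of -0.45 ± 0.139 (limma adjusted p = 0.0125). The pair rc_AA893242_at (-0.30 ± 0.0866, adjusted p = 0.00784) and rc_AA893242_g_at (0.36 ± 0.236, adjusted p = 0.251) pointed in opposite directions, D90109_at differed by -0.43 ± 0.223 (adjusted p = 0.137; -0.59 and called after quantile normalization, adjusted p = 0.0346), and the mean of the 4 Acsl1 probe sets was not called (-0.20 ± 0.137, adjusted p = 0.259). Cpt1a read 3818 and 3780, against 2312 to 3539 (median 3043), with no overlap, where the share of all probe sets without overlap is not given. It was the only member called higher, by 0.35 ± 0.118 (adjusted p = 0.0216). After quantile normalization the difference was 0.23 (adjusted p = 0.158). Cpt1b D43623_g_at read 10406 and 10767, against 7931 to 14760 (median 10826), inside the adult range, with a difference of -0.03 ± 0.112 (adjusted p = 0.859). Slc25a20 read 4223 and 4636, against 3719 to 6657 (median 4342), also inside it. Ppara read 512 and 643, against 581 to 840 (median 733), a difference of -0.33 ± 0.169 (adjusted p = 0.136), called when only neonatal and control arrays were fitted (adjusted p = 0.0428). With only 2 neonatal arrays, leaving out either one removed the call of Cpt1a (adjusted p = 0.166 and 0.127 without replicates 1 and 2) and of rc_AA893242_at (0.0628 and 0.109). Leaving out replicate 2 removed that of rc_AI044900_s_at (0.238). Cpt2 and Ucp3 AF035943_at kept theirs.

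**Figure D5:**
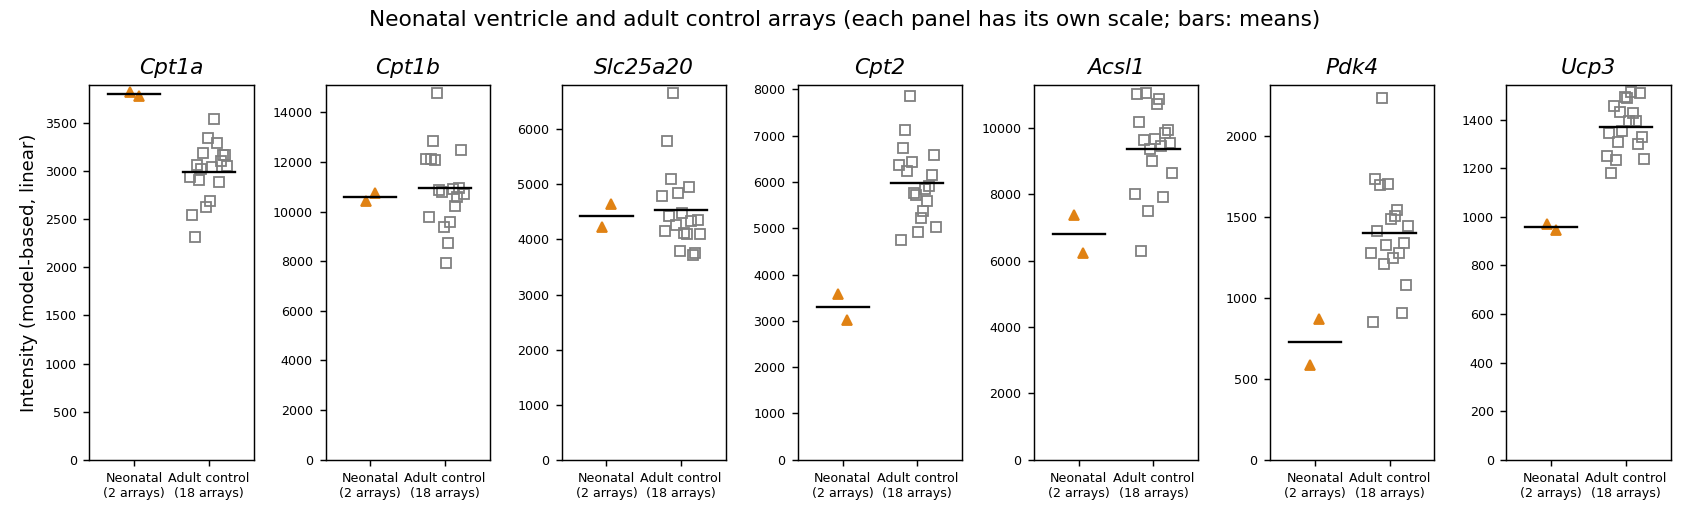
Intensity (linear vertical axes from 0, one scale a panel) of 7 genes on the 2 neonatal arrays (triangles) and the 18 adult control arrays (squares), with means as bars; Ucp3 is shown by AF035943_at and the others by their brightest probe set. Neonatal Cpt2 (3012 to 3571) and Ucp3 (946 to 971) lie below all adult controls, Cpt1a (3780 to 3818) lies above them, and Cpt1b and Slc25a20 lie among them. The share of all probe sets that lie wholly apart is not given.

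Among the other lists, neonatal hearts had 5 of 7 pyruvate dehydrogenase genes lower and 0 higher, with a median of -0.63 log2 beside -0.07 for all probe sets. Pdk1 (-2.19 ± 0.222) and Pdk2 (-1.09 ± 0.14), 2 further kinases of the complex, were lower beside Pdk4. Over all probe sets 17% were called lower in neonatal hearts and 15.5% higher. Of 9 synthetases, transporters and thioesterases 4 were higher and 2 lower. Acsl3 differed by 1.01 ± 0.123 and the cytosolic thioesterase Acot1 by 1.35 ± 0.161. Acot2, its near-identical relative, differed by 0.19 in Y09333_at and by -0.0093 in AB010429_s_at, neither called. Of 17 further PPAR-alpha targets 9 were lower and 1 higher, with a median of -0.37. Of 10 PPAR family genes and partners 2 were lower, Rxrg (-0.54 ± 0.122) and Esrra (-0.38 ± 0.117), and 0 higher. That count of lower genes stood near the 17% of all probe sets. Of 9 cardiomyocyte markers 8 were lower, with a median of -0.65 (0.000963 after quantile normalization). Most of these markers are among the brightest probe sets, whose values quantile normalization makes alike on all arrays. The second median therefore cannot show whether they changed. Fibroblast markers moved too, with 4 of 7 higher and 1 lower, and a summed intensity of 49468 and 78314, against 28356 to 56748 on adult control arrays. Of the 3 atrial myocyte markers listed, 2 were measured, Myl4 and Myl7, and both were higher, with a median of 2.23 (2.07 after quantile normalization). Their summed intensity was 21646 and 24845 on neonatal arrays, against 3258 to 8663 on adult control arrays. The part of these markers in the neonatal member differences was not tested.

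Several members rose and fell together over the 26 log2 ratios, as a description of arrays that share controls. Cpt2 and Acot2 correlated at r = 0.81, Cpt2 and Slc25a20 at r = 0.73, Cpt2 and Cpt1b at r = 0.75 and Acot2 and Pdk4 at r = 0.83. These were the highest values among all pairs of members. Cpt1a did not go with them, and its correlations with other members ran from -0.25 (Cpt1b) to 0.30 (Ppara), with 0.05 for Cpt2. Acot2 and Pdk4 ratios were -1.07 and -1.13 on banding replicate 1 of 16 weeks. On angiotensin II replicate 1 they were 0.79 and 1.36. Correlations among all probe sets are not given beside these. Ppara correlated with Cpt2 at r = -0.19 and with Slc25a20 at r = -0.50. The second rests largely on infarction replicates 1 and 3 of 9 weeks, with Ppara ratios of -0.91 and -1.15 and Slc25a20 ratios of 0.51 and 0.37, without which r was -0.18 over 24 arrays. On these 2 arrays the Pdk4 ratios were 1.00 and 0.55. Ucp3 correlated with Cpt2 at r = -0.16. The probe sets of other genes most like Cpt2 were those of Prkab1 (r = 0.93), the phosphofructokinase gene Pfkm (r = 0.89) and the acetoacetyl-CoA thiolase gene Acat1 (r = 0.86). Those most like Acsl1 were of Rpl3l (r = 0.80), Alas1 (r = 0.79) and Oxr1 (r = 0.79). Those most like Cpt1b were of Slc35b1 (r = 0.84), Pmpca (r = 0.84) and Cluh (r = 0.84).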

How the data were processed

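Left ventricular RNA pools were measured on 46 Affymetrix RGU34A arrays: 26 of treated hearts, 18 of controls and 2 of neonatal hearts. Per the study's methods, the authors normalized the arrays by invariant rank fitting and computed model-based expression values from perfect-match probes in dChip, and deposited them as linear intensity values for 8740 probe sets. Array intensities carry no read depth, so precision is limited by the number of arrays. Values under 16 (122 of 402040) were set to 16 and log2 was taken. limma 3.58.1 in R 4.3.3 fitted 20 group means to all 46 arrays, with Benjamini-Hochberg adjustment over all probe sets. Each treated group was set against its own controls, and means over times, or over the 10 treated groups, give each time or group the same weight. All member probe sets entered the counts, the text gives values for those the results turn on, and a gene is represented by its brightest one. Symbols came from the platform annotation (7006 probe sets with 1 symbol, 308 with several, 1426 with none). Members, lists and motifs were chosen with earlier results of these data known. Array counts compare each treated array with the mean of its own 2 controls. Genes named for likeness are the 3 with the highest correlation over 26 ratios, for the 3 members with the smallest average-effect p. Alternatives covered the floor, normalization, weights, filters, the samples in the fit and each array left out. The fit was tested on simulated data. Among treated groups and their own controls the hormone and vehicle arrays were checked for pairing by replicate number, and deviations of same-numbered arrays correlated at -0.04 to -0.08, so the numbers were not taken to pair them. Numbers that recur elsewhere, as between time points, were not used as a block.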

Additional observations from a re-analysis of the deposited data

Results flagged for a closer look

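Among 45 checks for a far-out sample in the groups of 4 arrays, 2 stood out, about the 1 in 20 that chance gives. For Acsl1 rc_AA893242_at at 9 weeks after infarction, the gap of replicate 1 (2439) to the next of 3012, 3087 and 3113 was 0.865 of the log2 range. For Cpt1b D43623_at at 30 weeks of banding, the gap of replicate 4 (8679) to 6494, 6236 and 6188 was 0.858 of the range.

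In several pairs of models every array of one lay below the mean of its controls and every array of the other above. The search took in 15 member probe sets and 10 pairs of models. The share of all probe sets that split this way is not given. Wholly above both vehicle arrays lay 18.7% of all probe sets with angiotensin II and 15.7% with Ditpa. Of these pairwise differences only that between the hormones was tested, and the test over all 5 models called 0 members in limma (3 at an unadjusted p below 0.05). For Acsl1 D90109_at the difference of mean log2 ratios was -0.99 for banding minus angiotensin II, -0.90 for banding minus Ditpa, -0.82 for infarction minus angiotensin II and -0.72 for infarction minus Ditpa. For Acsl1 rc_AA893242_g_at it was -0.45 for the shunt minus angiotensin II and -0.51 for the shunt minus Ditpa. For Cpt2 it was -0.72 for banding minus Ditpa and -0.48 for infarction minus Ditpa. For Acot2 Y09333_at it was -0.98 for infarction minus angiotensin II and -0.80 for infarction minus Ditpa. For Ucp3 the shunt minus Ditpa difference was 0.14 in AF030163_s_at and -0.20 in AF035943_at, of opposite sign, and angiotensin II minus Ditpa was -0.11 in AF035943_at, where the limma test of the hormone difference gave an adjusted p of 1. All pairs with a hormone rest on 2 arrays of it and the same 2 vehicle arrays.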

How the results depend on the processing

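Of the 6 member calls after banding, 3 were left without the 16-week group, an alternative chosen after seeing the data, and 1 when only banding and sham arrays were fitted. The average effect had 3 calls, which became 5 with quantile normalization, 6 with array weights, 6 without the hormone groups, 1 with the 5 models weighted equally, 1 without the 16-week banding group and 1 by an exact rank sum test on log ratios with Bonferroni correction, Acsl1 rc_AI044900_s_at. The single call over the 10 treated groups became 9 with array weights and 8 when only a group and its controls were fitted. All 8 were at 16 weeks of banding, where 5.89% of all probe sets were called in that fit. Shares of all probe sets under the other settings are not given. With array weights Slc25a20 and Acsl1 rc_AA893242_g_at lost their banding calls, and infarction had 3 calls in place of 1, surgical minus hormone 3 in place of 0 and the 5-model test 1 in place of 0. Against the vehicle arrays alone the neonatal comparison had 2 calls in place of 6. With the mean of a gene's probe sets, infarction had 0 member genes called in place of 1. Leaving out each array in turn gave 0 to 3 calls over the treated groups, 3 to 7 for banding, 0 to 1 for infarction, 1 to 6 for the average, 0 to 1 for surgical minus hormone, 3 to 6 for neonatal hearts, 0 to 1 among the 5 models and 0 to 1 over banding time. The low banding count came without sham replicate 4 of 16 weeks, and the low average count without vehicle replicate 1. Without banding replicate 4 of 30 weeks the average had 6 and without banding replicate 2 of 12 weeks 5. Ucp3 AF030163_s_at at 16 weeks of banding was 0.49, and it was -0.10 without the same sham array and 1.09 without its partner, replicate 3. The member median at 16 weeks of banding was -0.53, and -0.37 without that sham and -0.58 without its partner, chosen after seeing the data, as was leaving out 2 infarction arrays from the correlations of Ppara. A replicate block in the hormone and vehicle arrays changed no call and gave 0 for surgical minus hormone. Over all results and alternatives, 70 single calls were lost and 50 gained, and the causes were not tested. With 2 to 4 pools a group, single treated groups can show only large differences.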
